A study of Caenorhabditis elegans with 10 samples.

Results

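The genes described here are the sperm genes of the nematode Caenorhabditis elegans: the major sperm protein family (msp), the sperm-specific families ssp and ssq, the sperm chromatin gene spch-1, the sperm phosphatases gsp-3 and gsp-4, the ferlin gene fer-1 and the genes named spe for defective spermatogenesis. They were chosen by symbol and not by signal, though with earlier results of these data known. A gene was a member if its symbol began with msp, ssp, ssq, spe or spch followed by a number, or was gsp-3, gsp-4 or fer-1, and if a probe set on the array carried that symbol alone. This gave 68 genes of the 17118 measured: 23 msp, 29 spe, 8 ssp and 4 ssq genes, gsp-3, gsp-4, spch-1 and fer-1. A further 15 symbols of these families, 9 of them msp, occurred only on probe sets shared with another symbol and are not counted among the members.

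Total RNA from untreated worms was hybridised to Affymetrix arrays, 5 of the mutant xpa-1 (ok698) I and 5 of the wild-type strain Bristol N2. The xpa-1 gene encodes the counterpart of the human XPA protein of nucleotide excision repair, and the study set the strains side by side without any DNA-damaging treatment. Both strains were mixed-stage populations kept at 20 °C for 3 to 4 days on agar plates with HT115(DE3) bacteria, with starved plates discarded. Each array held pooled animals of 10 to 20 plates, so that larvae, adults and embryos, and any males, entered one RNA sample in proportions that the labels do not give. Values are log2 probe set signals, in which a step of 1 is a 2-fold difference and 0 is the lowest value the file holds. The precision is limited by the number of arrays. The xpa-1 transcript itself stood between 0 and 1.58 on the mutant arrays and between 6.38 and 6.88 on the N2 arrays, a difference of -5.90 (SE 0.304, limma adjusted p = 4.92e-05), as the labels have it. The sources used here do not say where its probes lie against the deletion.

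In a C. elegans hermaphrodite the germ line makes sperm late in larval life and then changes over to oocytes, while males make sperm throughout adulthood. The sperm are amoeboid: in place of actin they crawl on a cytoskeleton of major sperm protein, which is also released as a signal that makes oocytes mature and the gonadal sheath contract. Many of the genes are transcribed together while spermatocytes form, since transcription largely stops as the cells divide into spermatids, and the products are packed into fibrous bodies and membranous organelles until the spermatid is activated.

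The average sperm signal differed little between the strains and much between separate cultures. No sperm gene differed between xpa-1 and N2 past the threshold, while the signals of the msp genes ranged over 2.16 to 3.02 log2 units from the lowest to the highest of the 10 arrays. The lowest and the highest array were both wild-type cultures. Most of the ssp, ssq, gsp and spch-1 signals moved with msp from array to array, and most of the spe signals did not pass a test of doing so. In RNA of whole worms, fewer sperm-forming cells and less RNA per cell cannot be told apart.

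The major sperm protein genes stood at the centre of this pattern. The brightest probe set was that of msp-55 (C09B9.6), with log2 signals of 10.97, 10.71, 10.34, 10.26 and 10.22 on xpa-1 arrays 1 to 5, against 10.25, 8.99, 11.18, 11.46 and 10.64 on N2 arrays 1 to 5. The 5 mutant arrays lay inside the span of the wild-type arrays, so the strains overlapped fully. Between N2 replicate 4 and N2 replicate 2 the msp-55 signal differed 5.54-fold, although both are wild type. The strain means were 10.50 ± 0.33 in xpa-1 and 10.50 ± 0.97 in N2 (SD, n = 5 each). The difference was 0.00 (SE 0.428, limma adjusted p = 1), with a 95% interval from -0.97 to 0.96, so that a strain difference of nearly 2-fold either way could not be told from none.

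**Figure D1:**
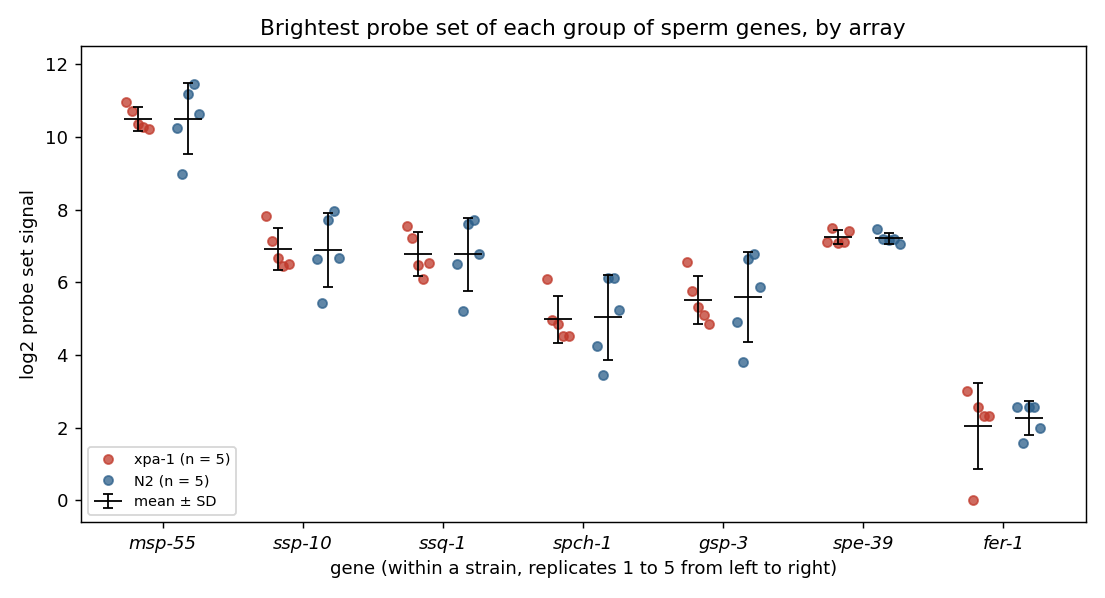
Log2 probe set signal of the brightest gene of each group on every array, xpa-1 in red to the left of N2 in blue, with replicates 1 to 5 from left to right and the mean ± SD in black (n = 5 each). For msp-55, ssp-10, ssq-1, spch-1 and gsp-3 the N2 points spread past the xpa-1 points, whereas the 10 points of spe-39 lie within 0.45 log2 units.

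The other msp genes repeated this order of arrays. The next brightest probe sets were those of msp-78 and msp-65. The msp-78 signals ran from 10.13 to 10.79 in xpa-1 and from 9.03 to 11.31 in N2, and those of msp-65 from 10.00 to 10.87 in xpa-1 and from 8.81 to 11.37 in N2. The dimmest msp probe set, that of msp-63, ran from 7.64 to 8.80 in xpa-1 and from 6.46 to 9.34 in N2. In all 23 msp genes N2 replicate 2 was the lowest of the 10 arrays and N2 replicate 4 the highest. The widest range was 3.02 log2 units (8.11-fold) for msp-142, followed by 2.88 for msp-32, msp-49 and msp-63, and the narrowest were 2.16 for msp-53 and 2.28 for msp-78. Averaged over the 23 genes, the msp signal was 10.17, 9.85, 9.28, 9.19 and 9.27 on xpa-1 arrays 1 to 5, and 9.25, 8.01, 10.35, 10.62 and 9.60 on N2 arrays 1 to 5. Between the extreme N2 arrays this mean differed 6.13-fold.

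Between strains the msp genes differed by -0.15 (msp-50) to 0.06 (msp-76), with 8 of 23 higher and 15 lower and a median of -0.01, beside a median of 0.02 over all genes. The SE of these differences was 0.393 to 0.553, several times the differences themselves. The MSP proteins are nearly identical in sequence, and all 23 msp probe sets belong to the class whose probes can match transcripts of several genes, so their agreement is not that of 23 separate measurements. By the RefSeq gene table of assembly WBcel235, 13 of the 23 lie on chromosome II and 10 on chromosome IV, and 14 have another sperm gene of the set within 5 genes. Neighbours include msp-63 and msp-142, and msp-32 and msp-33, which are adjacent. The array ranges were 2.40 to 3.02 for the chromosome II genes and 2.16 to 2.65 for those on chromosome IV. A further 8 probe sets shared by several msp genes had ranges of 2.08 to 2.52 and differences of -0.03 to 0.05 between strains, and each of the 8 was lowest on N2 replicate 2 and highest on N2 replicate 4.

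The ssp genes encode small sperm-specific proteins, several of them with an MSP domain. The brightest, ssp-10 (K07F5.9), had signals of 7.83, 7.14, 6.67, 6.44 and 6.51 on xpa-1 arrays 1 to 5, against 6.63, 5.43, 7.71, 7.97 and 6.67 on N2 arrays 1 to 5. As for msp, N2 replicate 2 was lowest and N2 replicate 4 highest, and the strains overlapped. The difference was 0.04 (SE 0.488, limma adjusted p = 1; 95% interval -1.06 to 1.14). Of the 8 ssp genes, ssp-10, ssp-16, ssp-19, ssp-31, ssp-33, ssp-34 and ssp-35 were all lowest on N2 replicate 2. Their array ranges went from 1.92 (ssp-33) to 3.02 (ssp-35). The exception was ssp-37, at 6.39 to 7.39 in xpa-1 and 6.60 to 7.20 in N2, a range of 1.0 whose lowest and highest arrays were both xpa-1.

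Of the ssq genes, which encode sperm-specific proteins of another class, ssq-1 (K07F5.11) was brightest. Its signals were 7.55, 7.22, 6.48, 6.09 and 6.54 on xpa-1 arrays 1 to 5, against 6.51, 5.21, 7.60, 7.72 and 6.79 on N2 arrays 1 to 5. This gene lies next to ssp-10 on chromosome IV, and its probe set is not of a class that matches several transcripts. The signals of ssq-2 ran from 4.58 to 6.23 in xpa-1 and from 3.58 to 6.21 in N2, and those of ssq-3 from 4.75 to 6.09 in xpa-1 and from 3.70 to 6.29 in N2. All 3 were lowest on N2 replicate 2. The probe set of ssq-4 was near the floor, at 0 to 1.0 in xpa-1 and 0 to 2.0 in N2, and its differences of a few signal units carry no order.

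Chromatin and signalling genes of sperm behaved in the same way. The protamine-like gene spch-1 (C04G2.8), whose product packs DNA in the sperm nucleus, had signals of 6.09, 4.95, 4.86, 4.52 and 4.52 on xpa-1 arrays 1 to 5, against 4.25, 3.46, 6.11, 6.13 and 5.25 on N2 arrays 1 to 5. The phosphatase gene gsp-3 (W09C3.6), a sperm relative of protein phosphatase 1 that acts in chromosome segregation and motility, stood at 6.55, 5.75, 5.32, 5.09 and 4.86 on xpa-1 arrays 1 to 5, against 4.91, 3.81, 6.63, 6.77 and 5.88 on N2 arrays 1 to 5. In both genes xpa-1 replicate 1 and N2 replicates 3 and 4 were high and N2 replicate 2 was lowest, so that the high arrays came from both strains. The close copy gsp-4 had the widest array range of the 68 genes, 3.35 log2 units or 10.2-fold, from 4.75 to 6.19 in xpa-1 and from 3.32 to 6.67 in N2. The probe sets of gsp-3 and gsp-4 are of the class that can match several transcripts, and their signals may not be separate. For gsp-1 and gsp-2, the relatives of these phosphatases that work throughout the body, the test of moving with msp-55 given below was not passed.

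The spe genes were more varied, and many were dim: 10 of the 29 stood at 0 on at least 1 array, as did fer-1 and ssq-4. Among genes acting before and during spermatocyte formation, spe-44 (C25G4.4), a regulator of the transcription of sperm genes, stood at 5.52 to 6.11 in xpa-1 and 4.86 to 6.0 in N2. Its lowest array was N2 replicate 5 and its highest xpa-1 replicate 5, an order unlike that of msp. A lowest value on N2 replicate 5 was common, since that array was the single lowest for 3485 of all 17118 genes. The brightest spe probe set was that of spe-39 (ZC404.3), whose product directs vesicle traffic in sperm and in other cells. It had signals of 7.11, 7.49, 7.09, 7.12 and 7.41 on xpa-1 arrays 1 to 5, against 7.46, 7.20, 7.15, 7.18 and 7.04 on N2 arrays 1 to 5. These 10 values spanned 0.45 log2 units, the narrowest range of the 68 genes, and the strain difference was 0.04 (SE 0.111, limma adjusted p = 1; 95% interval -0.21 to 0.29).

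Among genes that build the sperm's organelles, spe-18, needed for fibrous bodies, varied most like msp, at 4.32 to 5.81 in xpa-1 and 3.32 to 6.0 in N2. The presenilin gene spe-4 stood at 2.32 to 4.32 in xpa-1 and 3.00 to 4.32 in N2, and the palmitoyltransferase gene spe-10 at 1.0 to 2.0 in xpa-1 and 0 to 3.00 in N2. The myosin VI gene spe-15, which helps to clear actin and other material from the budding spermatid, stood at 4.32 to 5.29 in xpa-1 and 4.09 to 5.17 in N2. The proton pump subunit gene spe-5 lay between 3.91 and 4.58 in xpa-1 and between 4.17 and 4.52 in N2, a range under 1 log2 unit in all. The kinase gene spe-6 lay between 2.32 and 3.32 in xpa-1 and between 2.0 and 3.46 in N2, and the actin-binding kelch gene spe-26 between 1.58 and 3.17 in xpa-1 and between 1.58 and 3.00 in N2. The signals of fer-1, whose product fuses membranous organelles with the cell surface, were 3.00, 0, 2.58, 2.32 and 2.32 on xpa-1 arrays 1 to 5, against 2.58, 1.58, 2.58, 2.58 and 2.0 on N2 arrays 1 to 5. Apart from the 0 on xpa-1 replicate 2, the fer-1 values ran from 1.58 to 3.00.

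Genes that turn a spermatid into a crawling sperm include the spe-8 group, which relays an activating signal in hermaphrodites. In that group spe-43 had the lowest strain p of the 68 genes, with signals of 1.58, 1.0, 1.58, 1.0 and 1.0 on xpa-1 arrays 1 to 5, against 1.58, 2.0, 2.32, 2.32 and 2.32 on N2 arrays 1 to 5. The mutant arrays were at or below every wild-type array, with a tie at 1.58. The difference was -0.88 (SE 0.195, limma unadjusted p = 0.00141), and after adjustment over all genes it did not pass (adjusted p = 0.599). The tyrosine kinase gene spe-8 stood at 0 on 4 xpa-1 arrays and 1.0 on xpa-1 replicate 3, against 0, 1.0, 1.0, 1.58 and 1.58 on N2 arrays 1 to 5 (difference -0.83, SE 0.330, limma unadjusted p = 0.0324, adjusted p = 1). All of these signals, taken unlogged, are within a few units of the floor, where the file holds only the logs of whole numbers.

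The other members of the spe-8 group did not share a direction. The strain difference was -0.25 for spe-12 and 0.00 for spe-19 and spe-27. Of these, spe-27 moved with msp, at 1.0 to 2.81 in xpa-1 and 0 to 2.81 in N2, with N2 replicate 2 at 0. For spe-46 and spe-47, which also act in activation, the differences were -0.02 and 0.09. None of these values passed the test.

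Sperm surface proteins and other products that act at the meeting of sperm and oocyte include those of spe-9, spe-36, spe-38, spe-41, spe-49 and spe-51. Their differences between strains ran from 0.00 (spe-49) to 0.52 (spe-38), and none passed. The spe-38 probe set, the dimmest of the spe genes, was at 1.58 and 1.0 on xpa-1 replicates 1 and 2 and at 0 on the other arrays of both strains. The calcium channel gene spe-41 was the brightest of these probe sets, at 2.81 to 4.00 in xpa-1 and 3.17 to 3.91 in N2. The paternal-effect gene spe-11, whose product is carried into the egg and needed by the embryo, stood at 3.17 to 4.09 in xpa-1 and 2.0 to 4.91 in N2, with N2 replicate 2 lowest and N2 replicate 4 highest.

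Over the whole set, limma called 0 of 68 sperm genes between the strains, where 19 of 17118 genes (0.111%) were called, 10 of them higher (0.0584%) and 9 lower (0.0526%) in xpa-1. At an unadjusted p under 0.05 there were 2 sperm genes, spe-43 and spe-8, both lower in xpa-1, where 3.32% of all genes reached that p. A count this small is near the background. The median difference of the 68 genes was -0.01, with 25 higher, 40 lower and 3 at 0, and it was -0.01 for msp, -0.06 for ssp, 0.01 for ssq and -0.02 for spe. All 68 overlapped between the strains, where 64 genes (0.374%) of all those measured did not. The medians rested on single arrays: without N2 replicate 2 the median difference of the 68 genes was -0.38, and without N2 replicate 4 it was 0.21. In neither case was a sperm gene called.

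**Figure D2:**
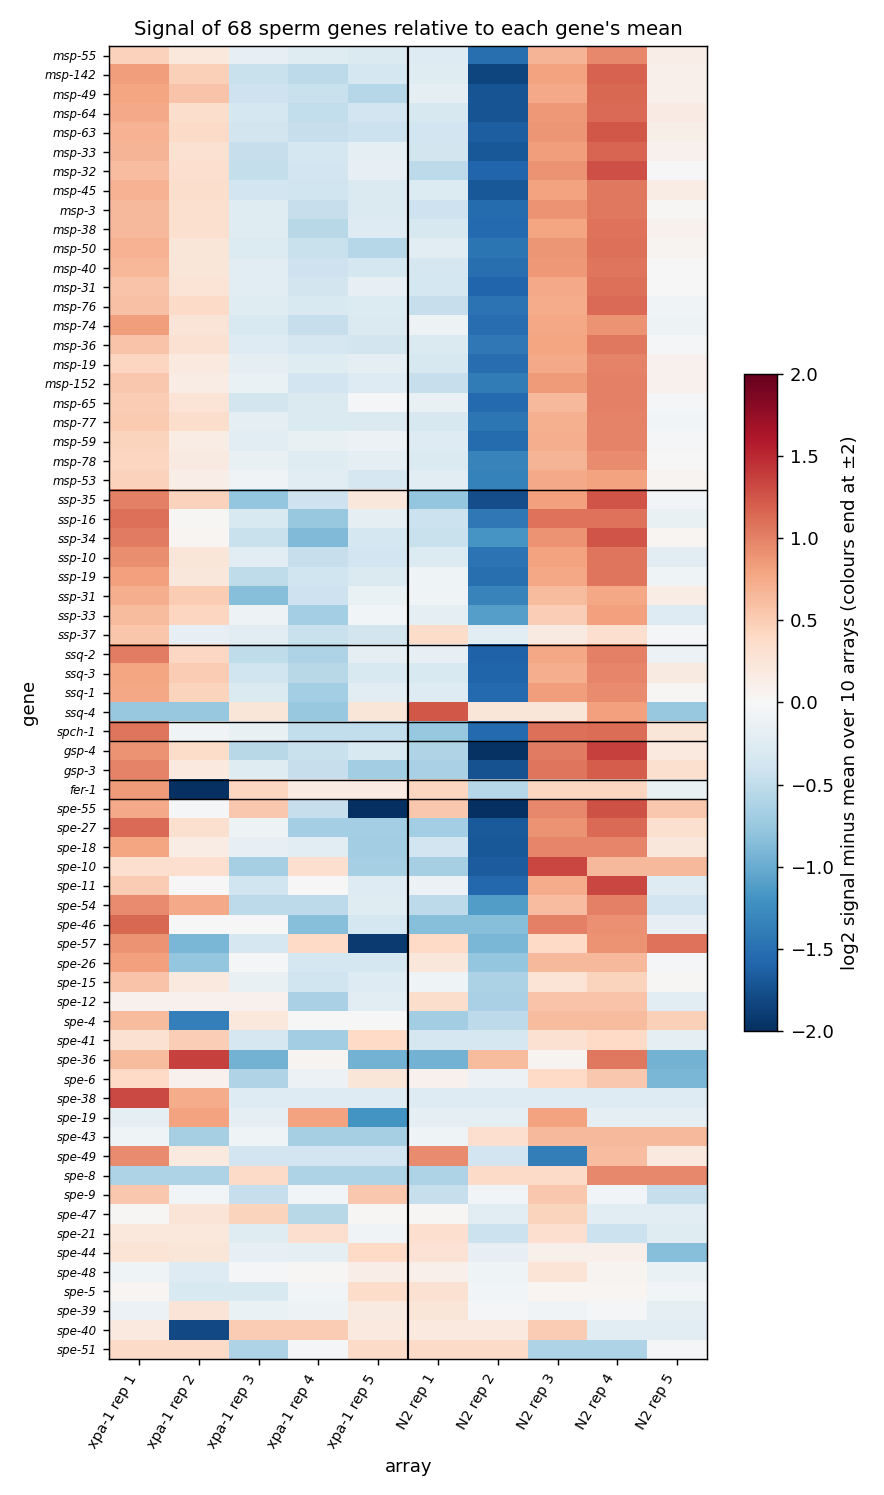
Log2 signal of each of the 68 sperm genes on each array, minus that gene's mean over the 10 arrays, with the 5 xpa-1 arrays left of the 5 N2 arrays and black lines between the gene groups. The msp rows and most ssp, ssq, gsp and spch-1 rows are red on xpa-1 replicate 1 and N2 replicates 3 and 4 and dark blue on N2 replicate 2, while the lower spe rows show no common column.

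The spread between cultures was large for sperm genes. Their median range over the 10 arrays was 2.48 log2 units, against 1.0 for all genes, and 50 of 68 (73.5%) ranged over at least 2 log2 units, against 17.6% of all genes. The dimmest genes of the array can reach such ranges through the floor, but the msp probe sets were far above it. N2 replicate 2 was the single lowest array for 42 of the 68 genes, and N2 replicate 4 the single highest for 38, where over all 17118 genes these counts were 986 and 1014.

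The wild-type cultures lay farther apart than the mutant ones. The median SD of a sperm gene was 0.525 over the xpa-1 arrays and 0.975 over the N2 arrays, and the SD was higher in N2 for 54 of 68 genes and for all 23 msp genes, whereas over all genes the medians were 0.293 in xpa-1 and 0.310 in N2, and 54.9% were higher in N2. The genes share their arrays, so these counts come from 5 cultures of each strain. An exact permutation test over the 252 divisions of the arrays, two-sided, for the brightest gene of each of the 7 groups, found no difference in SD past the threshold. The lowest exact permutation p was 0.119 for gsp-3 (SD 0.666 in xpa-1 and 1.24 in N2, adjusted p = 0.333), and msp-55 had p = 0.143 with the same adjusted value. Without N2 replicate 2 the median SD over the N2 arrays fell to 0.611. With only the probe sets of the class that matches 1 transcript, which leaves 30 of the sperm genes, 21 of them spe and 1 msp, the median SD was 0.566 in xpa-1 and 0.650 in N2. The gap between the strains was smaller in both cases.

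**Figure D3:**
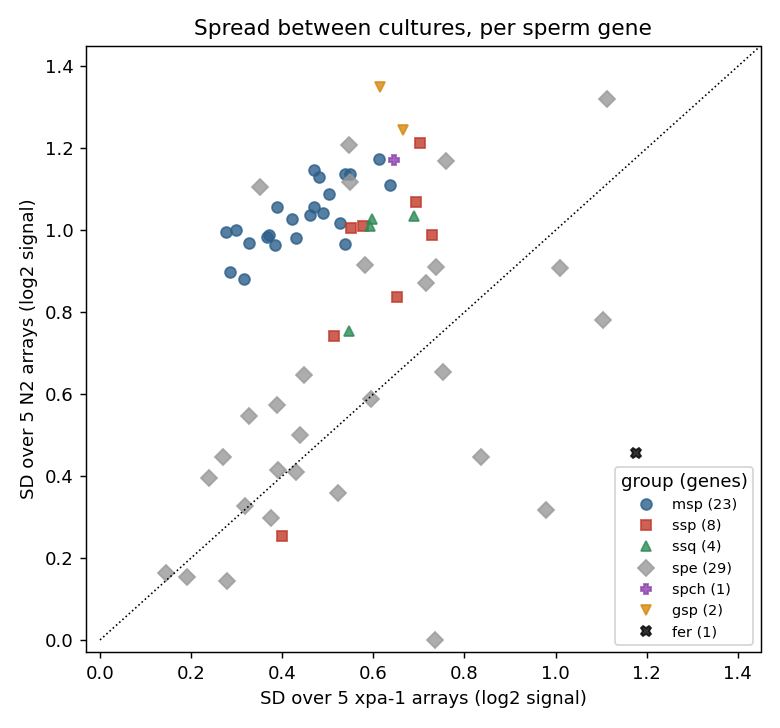
SD of the log2 signal of each of the 68 sperm genes over the 5 xpa-1 arrays (x axis) and the 5 N2 arrays (y axis), with the line of equal SD dotted. All 23 msp genes lie above the line, and the spe genes lie on both sides of it.

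How far each gene followed the major sperm protein signal was measured as a slope: the change in a gene's log2 signal per unit of msp-55 signal, fitted by limma across the 10 arrays with strain as a further term. This measure was chosen after the signals had been seen. A slope of 1 means that a gene varied in proportion to msp-55. Of 17117 genes, 260 (1.52%) had a positive slope at an adjusted p of 0.05 or less and 1 (0.00584%) a negative one, which is not a sperm gene. Of the 67 sperm genes other than msp-55, 39 had a positive slope past the threshold, 22 of them the other msp genes, at 0.91 (msp-53) to 1.27 (msp-142).

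Outside the msp family 17 of 45 sperm genes followed msp-55. They were gsp-3 (slope 1.34, SE 0.123, limma adjusted p = 0.00101), gsp-4 (slope 1.43, SE 0.0955, limma adjusted p = 0.000212), spch-1 (slope 1.24), 7 of 8 ssp genes, with slopes of 0.81 (ssp-33) to 1.28 (ssp-35), and 3 of 4 ssq genes, with slopes of 1.11 to 1.16. The ones left out were ssp-37 (slope 0.28, SE 0.133, limma adjusted p = 0.663) and the dim ssq-4. Only 4 of 29 spe genes followed: spe-18 (slope 1.19), spe-11 (1.09), spe-27 (1.30) and spe-15 (0.50). The call of spe-15 was lost in 8 of 10 fits that left out 1 array, all but those without xpa-1 replicate 1 or 4, and when arrays were centred on their median or quantile normalized. Several dim spe genes came close without passing, among them spe-10 (slope 1.14, limma adjusted p = 0.0511) and spe-54 (slope 0.97, limma adjusted p = 0.0522). The slope of spe-55 was 1.40, with a large error (limma adjusted p = 0.122).

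The low signal of the spe probe sets limits what these slopes can show. Among members with a mean log2 signal over 4, 37 of 42 followed msp-55, where 134 of 8674 (1.54%) of all genes over 4 did. Of the 25 members at or under 4, only spe-11 and spe-27 followed. Of those 37, 22 were the other msp genes, so this split does not separate signal from family. Among spe genes over 4, spe-15 and spe-18 followed, while spe-39, spe-44, spe-48 and spe-5 did not. The 5 brighter genes that did not follow were spe-39 (slope -0.03, SE 0.0901), spe-44 (slope 0.08, SE 0.179), spe-48, spe-5 and ssp-37. For spe-39 and spe-44 the slopes lay several SE below 1. Leaving out 1 array at a time kept the calls of gsp-3, gsp-4, spch-1, spe-18, spe-27, ssp-10, ssp-19, ssq-1 and ssq-3 in 10 of 10 fits, whereas spe-11 and ssq-2 were lost without N2 replicate 2 and ssp-16 without N2 replicate 4. The probe sets of ssp-10, ssp-31, ssp-33, ssq-3, spch-1 and spe-18, like those of gsp-3 and gsp-4, can match several transcripts. These followers may not all be separate measurements. The calls of ssp-31, ssp-33, ssp-34 and ssp-35 were lost in 2 to 4 of the 10 fits, without N2 replicates 2, 3 or 4 or, for ssp-33, xpa-1 replicate 1. With the probe sets of each gene averaged, ssq-1 and ssq-2 were also lost. Leaving out N2 replicate 4 left 11 of 45 followers outside the msp family, against 17 with all arrays, while the 22 other msp genes all passed with any single replicate left out.

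**Figure D4:**
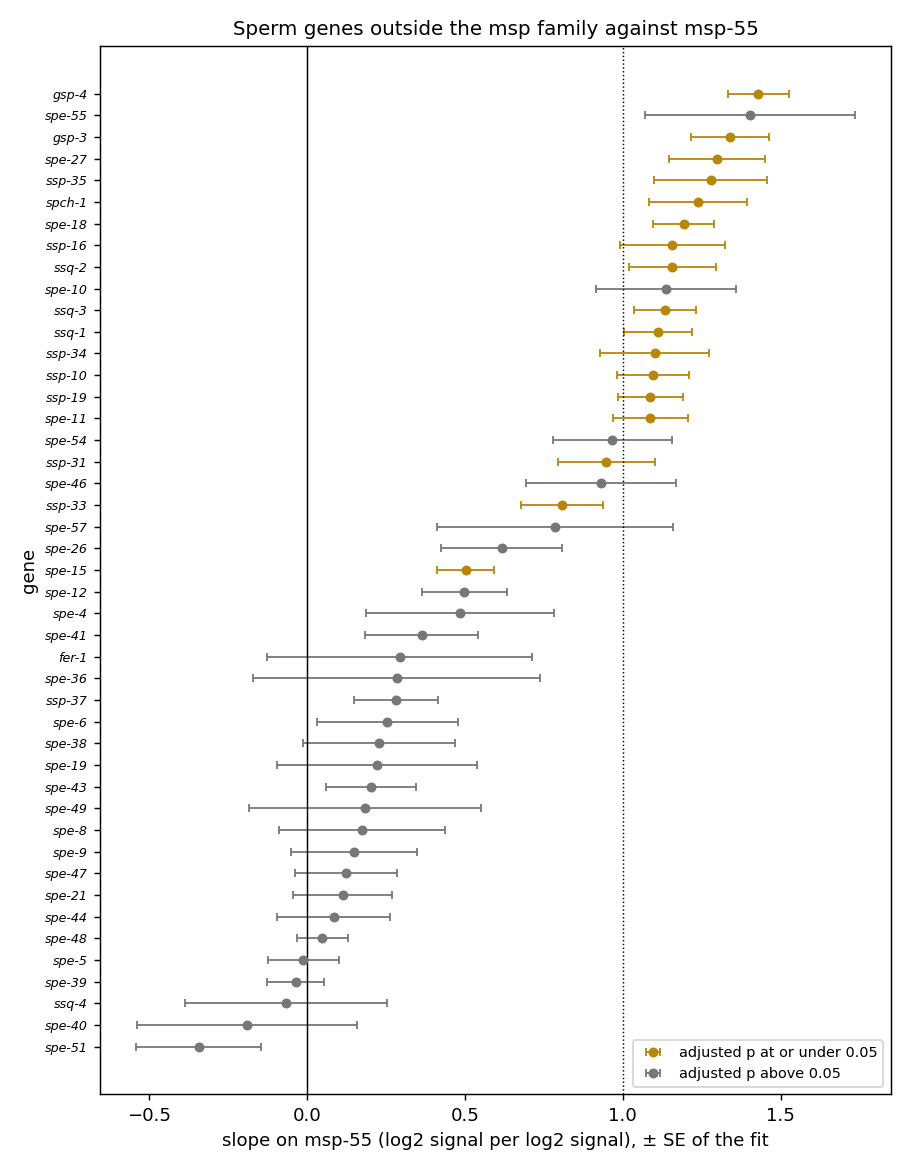
Slope of each of the 45 sperm genes outside the msp family on msp-55, in log2 signal per log2 signal, ± the SE of the limma fit over 10 arrays with strain as a term; genes at an adjusted p of 0.05 or less are gold, the others grey, and lines mark slopes of 0 and 1. Most gold points lie near 1, with spe-15, whose call was lost in 8 of 10 fits without 1 array, at 0.50, and spe-39, spe-5 and spe-48 lie near 0 with short error bars.

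Taken pair by pair, the brightest genes of the 7 groups fell into the same parts. Of 21 pairs, the 10 among msp-55, ssp-10, ssq-1, spch-1 and gsp-3 correlated over the 10 arrays with Pearson's r of 0.939 to 0.989 (permutation test, two-sided, adjusted p of 8.4e-05 to 0.00042) and Spearman's rho of 0.879 to 0.988 (permutation test, adjusted p of 0.00021 to 0.00346). As deviations from the strain means, pooled over both strains, these r were 0.940 to 0.989. The strain means of these genes were nearly equal, so taking deviations changed little, and no r was computed inside either strain alone. Without the 2 arrays farthest from the median the r of these pairs were 0.877 to 0.981 (permutation test, adjusted p of 0.00178 to 0.0151). Of the genes in the 10 pairs, only ssq-1 has a probe set outside the classes that can match several transcripts. The 11 pairs with spe-39 or fer-1 had r of -0.49 to 0.34 and rho of -0.37 to 0.53 over the 10 arrays. None of them passed (lowest adjusted p = 0.254 for r and 0.228 for rho, permutation tests). That result depended on xpa-1 replicate 2, where fer-1 stood at 0. Without that array 13 of the 21 pairs passed, so some pairs with spe-39 or fer-1 were among them. Leaving out any other single array kept the count at 10.

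With msp-55 as a term beside strain, the error of the strain comparison shrank for the genes that followed it. For the 22 other msp genes the median SE of the strain difference was 0.0909, against 0.474 without that term, and the differences ran from -0.15 to 0.06. The msp probe sets can match transcripts of several genes, so part of this shrinkage may be built in. A strain difference shared with msp-55 would not show in this fit. For gsp-4 the difference at equal msp-55 signal was 0.00, with a 95% interval from -0.29 to 0.28, and for ssq-1 it was 0.01, with an interval from -0.30 to 0.33. No sperm gene was called in this fit either. Relative to msp-55, the intervals of these genes left room for strain differences of a fraction of a log2 unit.

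The genes that moved with sperm were also compared with other genes of the germ line and soma, in lists of textbook markers. Of 17 measured genes of a list of further sperm and spermatogenesis genes, 7 followed msp-55: the PDZ protein genes smz-1 and smz-2, the sperm histone gene htas-1, msd-2 and msd-4, the kinase gene gskl-2 and the Argonaute gene alg-3. The 10 that did not pass were snf-10 (slope 0.87), fog-3 (0.52), fog-1, cpb-1, elt-1, zipt-7.1, ipp-5, gskl-1, alg-4 and try-5. The brightest of that list, msd-2, ran from 7.61 to 9.09 in xpa-1 and from 6.54 to 9.40 in N2. The mean signal of the 17 genes was lowest on N2 replicate 2 (3.83) and highest on N2 replicate 4 (5.13).

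In the other lists 0 of 60 genes followed msp-55, where 1.52% of all genes did, so a count of 0 is near the background. That was 0 of 12 oocyte and eggshell genes, 0 of 11 genes by which the oocyte and the sheath receive the MSP signal, 0 of 6 early embryonic, 0 of 5 yolk, 0 of 10 molting, 0 of 2 adult cuticle, 0 of 6 male soma, and 0 of 6 muscle genes, besides gsp-1 and gsp-2. The oocyte list had mean signals of 9.84 to 10.16 in xpa-1 and 9.56 to 10.23 in N2, with N2 replicate 2 at 10.10 and N2 replicate 4 at 9.92. The molting list ran from 5.29 to 6.34 in xpa-1 and from 5.01 to 6.54 in N2, with N2 replicate 2 at 5.91 and N2 replicate 4 at 6.02. Its members went both ways between these arrays: bli-1, a cuticle collagen gene, was at 6.36 on N2 replicate 4 and 4.17 on N2 replicate 2 (slope on msp-55 1.29, SE 0.434, limma adjusted p = 0.351), while mlt-11 was at 7.06 on N2 replicate 4 and 7.46 on N2 replicate 2. Both were named after their values were seen. The male soma list, which holds genes of male neurons such as pkd-2 and lov-1, was near the floor, at 1.54 to 1.83 in xpa-1 and 1.51 to 2.07 in N2. It was 1.70 on N2 replicate 2 and 1.69 on N2 replicate 4. The part that the number of males or the age of the larvae had in the sperm signal was not tested, and no gene of these lists was called between the strains.

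**Figure D5:**
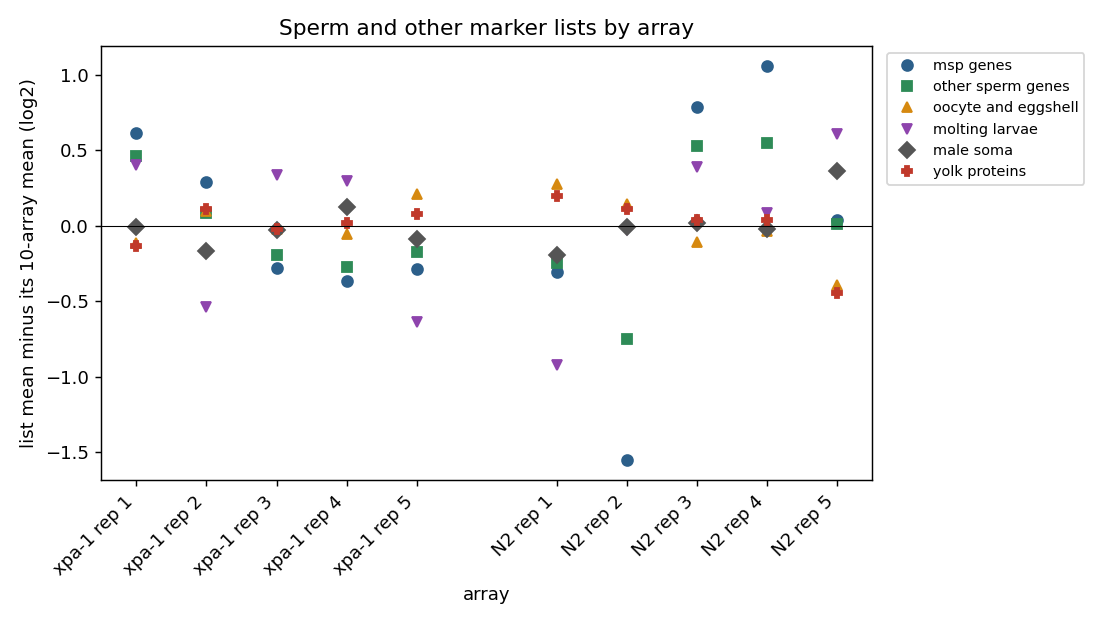
Mean log2 signal of 6 gene lists on each array, minus the list's mean over the 10 arrays, with xpa-1 arrays left of N2 arrays. The msp genes and the other sperm genes are low on N2 replicate 2 and high on N2 replicates 3 and 4, while the oocyte, yolk, molting and male soma lists do not share that order.

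The 260 genes that followed msp-55 include 221 that are not members, with a median slope of 1.17, and none of these was called between the strains. By chromosome they were 54 genes on I, 41 on II, 26 on III, 71 on IV, 25 on V and 4 on X. The X chromosome held 0 of the 68 sperm genes, which were chosen by symbol, and 13.8% of all genes measured, and 0.170% of its genes followed. This chromosome is largely silent in the male germ line, and whether that bears on these counts was not tested. The share of non-member genes that followed was 2.20% on chromosome I, 1.37% on II, 1.16% on III, 2.69% on IV and 0.580% on V. These shares are a description with no test. The 10 non-member genes whose pattern was most like the msp mean over the 10 arrays were C36H8.1, ZK546.3, gipc-1, T27E7.1, ZK1248.4, Y59H11AM.1, T23B3.5, gskl-2, C33F10.1 and msd-2, with Pearson's r of 0.990 to 0.995, given as a description. All 10 were lowest on N2 replicate 2 and highest on N2 replicate 4. Of these, ZK546.3 (annotated as a pseudogene), ZK1248.4 and C33F10.1 lie 4 or 5 genes from an msp gene on chromosome II. The probe sets of ZK546.3, ZK1248.4, Y59H11AM.1, T23B3.5 and msd-2 are of the class that can match several transcripts.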

How the data were processed

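The authors deposited log2 probe set signals, 1 column for each of 10 arrays. The submitters' processing notes name Affymetrix Expression Console. How probes were summarised, scaled and background-corrected is not given in the sources used. All values under 5 (100%) matched a logged whole number to within 0.005, and 11.2% of all values were 0, so signals had been rounded with a floor of 1. Array medians were 4.00 to 4.25. Correlations between arrays, across probe sets, were 0.953 to 0.984. Arrays give no read depth.

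The 77 control probe sets were left out. Of 22548 others, 20766 had 1 gene symbol, 887 several and 895 none; for each of 17118 genes the single-symbol probe set with the highest mean over 10 arrays was used. The members and lists were chosen with earlier results of these data known. Deposited values were fitted without further scaling in R 4.3.3 by limma 3.58.1 (lmFit, eBayes), two-sided. The p-values were adjusted over all genes by Benjamini-Hochberg, and 0.05 was the threshold. Differences are xpa-1 minus N2 with the SE of the fit, and intervals come from the same fit. Correlations used 100000 permutations, adjusted over 21 pairs, in Python 3.11.15 with scipy 1.17.1. Genes named are all members of the small groups, the brightest, dimmest and extreme msp genes, and the spe genes of known role; spe-54, spe-55 and spe-48 were named after their values were seen.

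On simulated data of 17118 genes, 5 arrays against 5, the strain test called 24 of 50 genes changed 1.5-fold, 39 of 50 changed 2-fold, 47 of 50 changed 4-fold and 49 of 50 changed 8-fold, with 7 false calls. Each simulated gene kept its own spread, and the changed genes were drawn from those with a mean log2 signal over 4. The median SD of such genes was 0.190 in xpa-1 and 0.222 in N2, against 0.293 and 0.310 over all genes. The simulated rates do not carry over to sperm genes, whose spread was larger. Replicates were separate collections of worms. Alternatives were other scalings, an offset on the unlogged signals, filters on dim or shared probe sets, the mean of a gene's probe sets, other limma options, array weights, a replicate block, leaving out each replicate, and msp-55 as a covariate, the last chosen after seeing the data. Replicate numbers are shared by the strains, but the labels tie nothing to them.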

Additional observations from a re-analysis of the deposited data

Results flagged for a closer look

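In 8 of the 144 groups of 5 arrays tested, 1 array stood apart from the other 4 by more than chance allows in about 1 group in 20, and chance alone gives about that many. On xpa-1 replicate 1, spch-1 was at 6.09 (the other xpa-1 arrays at 4.52 to 4.95) and ssp-37 at 7.39 (the others at 6.39 to 6.67). On xpa-1 replicate 2, fer-1 was at 0 (the others at 2.32 to 3.00) and spe-40 at 0 (the others at 2.0 to 2.32). On xpa-1 replicate 3, spe-8 was at 1.0 with the others at 0. In N2, spe-5 was at 4.52 on replicate 1 (the others at 4.17 to 4.25), spe-55 at 0 on replicate 2 (the others at 2.58 to 3.32) and spe-19 at 2.0 on replicate 3 (the others at 1.0). Apart from spch-1, ssp-37 and spe-5, these are signals of a few units, where 1 unit is a large step on the log2 scale.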

How the results depend on the processing

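Of 353 values recomputed under alternatives, 347 kept their side of the threshold and stayed within the spread between arrays. That count says little about stability, since 209 of the values belong to 11 single genes far from the threshold. Their adjusted p in the main limma fit was 0.599 or more. No sperm gene was called in any setting, with a lowest adjusted p of 0.184 (without N2 replicate 1). Of all genes, 12 passed with only those over a mean log2 signal of 4, 5 passed with the replicate block, and 13 to 21 without each replicate in turn, against 19. The block also left 0 sperm genes other than msp, and 0 of all genes, following msp-55; that fit has few residual degrees of freedom. The deviations of same-numbered arrays correlated at -0.70 (replicate 5) to 0.02 (replicate 3) across genes, and no array correlated best with its own number. These correlations do not settle whether same-numbered cultures were handled together, which the labels do not say. Without each replicate in turn, 11 to 18 sperm genes other than msp followed msp-55, the median SD of the sperm genes over N2 arrays was 0.611 to 1.12, and their median strain difference was -0.38 to 0.21. With 16 added to the unlogged signals that SD was 0.526, since an offset compresses low signals by construction. Array weights moved the median strain difference of the sperm genes to -0.38, with 0 called. Among 11 single genes followed through 209 alternative values, the sign of the difference changed in 41, none of them called. The floor of 1 limits the dim spe genes, and 5 arrays a strain limit all differences between strains.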

Other observations

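Some sperm genes had further probe sets that did not stand for the gene. The second msp-32 probe set, of the class matching 1 transcript, ran from 3.58 to 4.52 in xpa-1 and from 3.17 to 4.64 in N2. It too was lowest on N2 replicate 2 and highest on N2 replicate 4, with a range of 1.47 log2 units against 2.88 for the brighter msp-32 probe set. The second probe set of ssq-1 was dim, at 1.58 to 2.58 in both strains, and did not have N2 replicate 2 as its single lowest array. That of ssq-2 was also dim, at 2.32 to 3.0 in xpa-1 and 2.0 to 2.81 in N2, and was lowest on N2 replicate 5. The second probe set of spe-55 stood at 0 to 2.58 in xpa-1 and 0 to 2.81 in N2, with N2 replicate 2 among its lowest arrays. One further probe set of ssq-3 ran from 4.09 to 5.81 in xpa-1 and from 3.46 to 6.13 in N2, with the extremes on N2 replicates 2 and 4, whereas another stood at 2.0 to 2.32 in xpa-1 and 1.58 to 2.58 in N2.

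Of the 221 genes that followed msp-55 and are not sperm genes by symbol, 155 are known by a clone name alone. Among named families were 5 msrp, 5 nspd, 4 ttbk and 3 nsph genes, counted after their values were seen.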
